A study of Mus musculus with 36 samples.

Results

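Transcripts of 9 epididymal secretory genes were followed through the RNA-seq count tables of the study: Crisp1, Adam7, Lcn5, Lcn8, Lcn9, Rnase9, Rnase10, Cst8 and Gpx5. The genes were chosen by name, as genes whose products the epididymis secretes, and all 9 were found by their Ensembl identifiers among the 54838 genes of the sperm table. Cauda spermatozoa (sperm taken from the last part of the epididymis and purified by swim-up) came from C57BL/6 wildtype males (C57BL/6N in the methods of the study) put at 6 weeks of age on a high-fat diet (HFD, 60% of kcal from fat) or a low-fat diet (LFD, 10%) and collected 2 weeks later, at 8 weeks, with 3 libraries per diet. The same diets gave 6 libraries of round spermatids, the haploid cells of the testis that have not yet entered the epididymis, and 6 of morulae, embryos made by in vitro fertilization with such sperm. Epididymal white adipose tissue (eWAT), liver and gastrocnemius muscle, with 6 libraries each, came from C57BL/6 wildtype male offspring of HFD fathers, labelled tolerant (HFDt) or intolerant (HFDi). The names in the tables of round spermatids, eWAT, liver and gastrocnemius give neither the diet nor the tolerance of a library, so each of these was used as 6 libraries of 1 tissue and not split.

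Each table held the raw number of reads per gene, and levels are given here as CPM, the count of a gene divided by the library total and multiplied by 1000000. Library totals were 2560219 to 4062321 counts in sperm, 20138842 to 31056066 in round spermatids, 11471251 to 12153141 in morulae, 1338149 to 4055537 in eWAT, 2036237 to 2552454 in liver and 369772 to 2749920 in gastrocnemius. A count of 0 allows up to 3 counts, for counting error only, which is 0.738 to 1.17 CPM in a sperm library and 0.740 to 2.24 CPM in an eWAT library. The labelled tissues carried their defining genes: 7 sperm and late spermatid genes summed to 4294 to 10841 CPM in sperm and 9313 to 12150 CPM in round spermatids, 5 adipocyte genes to 14878 to 28927 CPM in eWAT, 4 hepatocyte genes to 40779 to 60712 CPM in liver, 4 muscle genes to 24439 to 43883 CPM in gastrocnemius and 4 embryo genes to 311 to 412 CPM in morulae. The methods of the study name 3 mice per diet for the round spermatids. For the other tissues the labels do not say whether replicates were separate animals, so a p-value here measures the spread between these libraries, which may be technical.

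The epididymis is the coiled duct in which testicular sperm mature, and its epithelium secretes proteins and vesicles that coat the passing sperm. Mature sperm have stopped transcribing their nuclear genes, so the RNA of a sperm preparation can hold remnants from the testis, material taken up in the duct, and RNA of duct cells collected with the sperm. eWAT is the fat pad attached to the epididymis and is dissected away from it. In bulk RNA of this kind, fewer cells of a type and less RNA per cell cannot be told apart.

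The positions of the 9 genes are given in the GRCm38 coordinates of the deposited tables. Lcn8 (chr2:25653120-25656217), Lcn5 (chr2:25657952-25661977) and Lcn9 (chr2:25823153-25825537) belong to the epididymal lipocalin cluster, on the plus strand, and encode small carriers of lipophilic molecules. Cst8 (chr2:148798785-148805595, plus strand) encodes a cystatin-like protein known from both the testis and the epididymis. Rnase10 (chr14:51007751-51010758, plus strand) and Rnase9 (chr14:51038459-51041869, minus strand) encode secreted members of the ribonuclease A family. Adam7 (chr14:68497336-68533741, minus strand) encodes a membrane protein of the ADAM family that is passed on to the sperm surface. Gpx5 (chr13:21286429-21292731, minus strand) encodes a secreted glutathione peroxidase, and Crisp1 (chr17:40293758-40319207, minus strand) a cysteine-rich secretory protein that binds to sperm. None of the 9 overlaps another gene of the table on either strand. Crisp1 aligned to Crisp3 with 88.8% identity over 1436 bases, and no member shared 75 bases at 98% identity with a transcript of another gene.

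Promoter sequences of 8 of the 9 genes were found in RefSeq (GRCm38.p6; 250 bases before to 50 after the annotated start), and Adam7 was not among them. The 3 printed below are those of Crisp1, the member with the highest level in sperm, of Cst8, the member with the highest level in round spermatids, and of Lcn5, a member close to 0 in all 6 tissues and cell types. Capitals mark the androgen receptor half-site AGAACA and the TATA element TATAAA, each searched on both strands (TGTTCT and TTTATA), which do not overlap each other.
Crisp1 (chr17:40319158-40319457, minus strand): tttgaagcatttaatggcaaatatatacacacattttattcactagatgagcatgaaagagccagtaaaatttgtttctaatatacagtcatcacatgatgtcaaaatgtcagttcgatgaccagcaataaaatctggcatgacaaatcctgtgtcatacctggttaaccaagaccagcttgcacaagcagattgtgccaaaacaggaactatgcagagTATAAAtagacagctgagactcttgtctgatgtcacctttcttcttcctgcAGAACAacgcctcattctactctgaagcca
Cst8 (chr2:148798589-148798888, plus strand): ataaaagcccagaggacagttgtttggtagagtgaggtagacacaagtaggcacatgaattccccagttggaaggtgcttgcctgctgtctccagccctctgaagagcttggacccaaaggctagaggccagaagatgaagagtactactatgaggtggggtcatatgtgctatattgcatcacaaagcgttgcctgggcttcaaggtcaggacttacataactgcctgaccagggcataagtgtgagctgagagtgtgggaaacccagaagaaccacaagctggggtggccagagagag
Lcn5 (chr2:25657702-25658001, plus strand): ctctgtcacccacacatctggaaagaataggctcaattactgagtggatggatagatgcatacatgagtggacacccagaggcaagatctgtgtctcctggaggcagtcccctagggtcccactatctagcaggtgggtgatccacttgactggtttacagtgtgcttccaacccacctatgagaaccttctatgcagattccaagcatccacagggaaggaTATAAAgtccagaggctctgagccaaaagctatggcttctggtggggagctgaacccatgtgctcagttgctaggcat
The half-site was present in the promoters of 4 of the 8 genes (Lcn9, Rnase10, Rnase9 and Crisp1) and in 19.0% of all 32851 RefSeq promoters of this length. TATAAA was present in 2 of the 8 (Lcn5 and Crisp1) and in 13.6% of all. The Cst8 window holds neither. Lcn9 has a half-site and was at 0 in every sperm library, and Lcn5 shares the TATA element with Crisp1. A match is only a stretch of letters and not a site shown to bind a factor.

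In cauda sperm, 8 of the 9 genes had a count in some library, and their levels spanned several orders of magnitude. Crisp1 was by far the most abundant, with 5833, 5742 and 10577 counts in HFD libraries h4000, h1000 and h3000 and 60122, 23806 and 7207 counts in LFD libraries l4000, l2000 and l1000. These were 1585, 1918 and 2604 CPM on HFD and 23483, 7804 and 2474 CPM on LFD. No library lacked it, and library l4000 stood far above the other 5. It made up 81.8 to 96.5% of the counts on the 9 genes in each sperm library, with the lowest share in l1000 (95% Wilson interval 81.0 to 82.6%) and the highest in h4000 (96.0 to 96.9%). Adam7 was next, with 158, 393 and 1116 counts (42.9, 131 and 275 CPM) in h4000, h1000 and h3000 and 3826, 2183 and 1570 counts (1494, 716 and 539 CPM) in l4000, l2000 and l1000. All 3 LFD libraries were above all 3 HFD libraries, as they were for 57.2% of the 8643 genes tested between the diets below.

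Gpx5 had 9, 19 and 6 counts on HFD (h4000, h1000, h3000) and 58, 40 and 18 on LFD (l4000, l2000, l1000), or 1.48 to 6.35 CPM against 6.18 to 22.7 CPM. Rnase9 had 7, 12 and 1 counts on HFD and 65, 9 and 4 on LFD in the same order, so that l4000 held 65 of its 98 counts. Cst8 went the other way, with 37, 19 and 0 counts on HFD and 1, 2 and 10 on LFD. Its levels overlapped between the diets, because the HFD library h3000 had none. Rnase10 had 28 counts in all, of which 14 and 11 were in l4000 and l2000. Of the lipocalins, Lcn5 had 6 counts, 5 of them in l4000, Lcn8 had 4, all in l2000, and Lcn9 had 0 in all 6 libraries. Gpx5 and the lipocalins Lcn5 and Lcn8 are best known from the head of the epididymis (caput), the part farthest upstream of the cauda. The regions that make the other members, Adam7 included, were not compared, so no pattern by region is drawn from these counts.

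**Figure D1:**
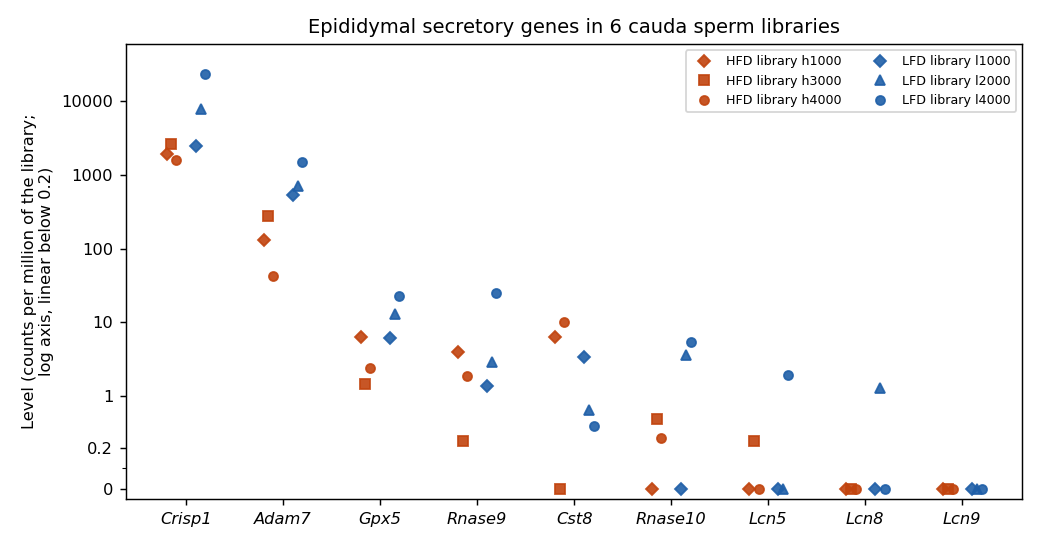
Level of each of the 9 genes in each sperm library, in CPM on a log axis that is linear below 0.2; red symbols are the 3 HFD libraries and blue symbols the 3 LFD libraries. Crisp1 lies between 1585 and 23483 CPM and Adam7 between 42.9 and 1494 CPM, whereas Lcn9 is at 0 throughout.

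Per kilobase of transcript, which allows genes to be compared, the median levels over the 6 sperm libraries were 1793 CPM per kb for Crisp1, 94.0 for Adam7, 3.74 for Gpx5, 2.40 for Cst8, 2.04 for Rnase9 and 0.230 for Rnase10, with Lcn5, Lcn8 and Lcn9 at a median of 0. The ranges of Crisp1 (1120 to 16584 CPM per kb) and Adam7 (9.92 to 345 CPM per kb) did not overlap each other. Those of Gpx5 (0.882 to 13.5), Cst8 (0 to 11.8) and Rnase9 (0.207 to 21.3) overlapped almost fully, so that the order of these 3 is not resolved. The 9 genes together took 0.783 to 1.31% of the nuclear counts of HFD libraries and 0.826 to 4.43% of those of LFD libraries.

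The comparison of the diets asks whether RNA of these genes in sperm differs after 2 weeks on HFD. In edgeR's quasi-likelihood test with TMM scaling, none of the 4 members that passed the filter on low counts (Crisp1, Adam7, Cst8 and Gpx5) differed between HFD and LFD at a Benjamini-Hochberg adjusted p under 0.05. Of all 8643 genes tested 0% was called as well. DESeq2 called 295 genes, no member among them, and limma-voom called 0. At an unadjusted p under 0.05, edgeR gave 1122 genes, DESeq2 1374 and limma-voom 1228. The log2 fold change of HFD over LFD was -0.92 for Adam7 (SE 0.55, adjusted p = 0.520, edgeR), -0.53 for Crisp1 (SE 0.68, adjusted p = 0.794, edgeR) and -0.13 for Gpx5 (SE 0.83, adjusted p = 0.969, edgeR). For Cst8 it was 3.61 (SE 1.37, adjusted p = 0.287, edgeR), with an unadjusted p of 0.0197, and 8.33% of all tested genes were higher on HFD at an unadjusted p under 0.05. Over all tested genes the median was -0.07 on the same log2 scale. Without library l4000 the log2 fold change of Crisp1 was 0.16 in place of -0.53. The other 5 members (Lcn5, Lcn8, Lcn9, Rnase9 and Rnase10) had too few counts for the test.

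What the comparison shows for Crisp1 and Adam7 depends on the scale. On HFD, 78.1 to 84.3% of the counts of a sperm library fell on genes of the mitochondrial DNA, and on LFD 43.5 to 64.7%, so the nuclear genes shared a smaller remainder on HFD. Scaled by library totals alone, all genes together had a median log2 fold change of -1.82. Adam7 (-2.61, adjusted p = 0.0133, edgeR) and Crisp1 (-2.47, adjusted p = 0.0133, edgeR) passed the threshold, less than 1 log2 unit below that median. They were among 3266 of 8643 tested genes called on this scale. Summed over 3 libraries per diet, the ratio of HFD to LFD levels was 0.175 for Adam7 (95% interval 0.166 to 0.184, counting error only), 0.193 for Crisp1 (0.190 to 0.196), 0.233 for Gpx5 (0.154 to 0.344), 0.204 for Rnase9 (0.118 to 0.336) and 3.42 for Cst8 (1.85 to 6.82). Without library l4000 these ratios were 0.247 for Adam7, 0.397 for Crisp1, 0.326 for Gpx5, 0.855 for Rnase9 and 2.59 for Cst8, so this library carried much of the ratio of Crisp1 and most of that of Rnase9. Leaving out other libraries moved ratios as well. Cst8 was at 9.76 without l1000, 5.50 without h3000 and 1.77 without h4000, Rnase9 at 0.113 without h1000 and 0.311 without h3000, Adam7 at 0.0929 without h3000 and Gpx5 at 0.142 without h1000.

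The level of Adam7 on HFD lay below that on LFD without overlap in CPM of the library total, as it did for 57.2% of all tested genes, and in CPM of nuclear counts (205 to 1254 against 1472 to 2644), as for 26.2% of all tested genes. In TMM-scaled CPM its groups overlapped (97.1 to 384 on HFD, 355 to 579 on LFD), where 12.3% of all tested genes were lower on HFD without overlap. Crisp1 overlapped between the diets on all 3 scales. In TMM-scaled CPM, HFD libraries had a Crisp1 level of 3643 ± 62.2 (SD, n = 3) against 5245 ± 3740 (SD, n = 3) in LFD libraries, and the LFD libraries spanned 1629 to 9098 on both sides of the HFD libraries.

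**Figure D2:**
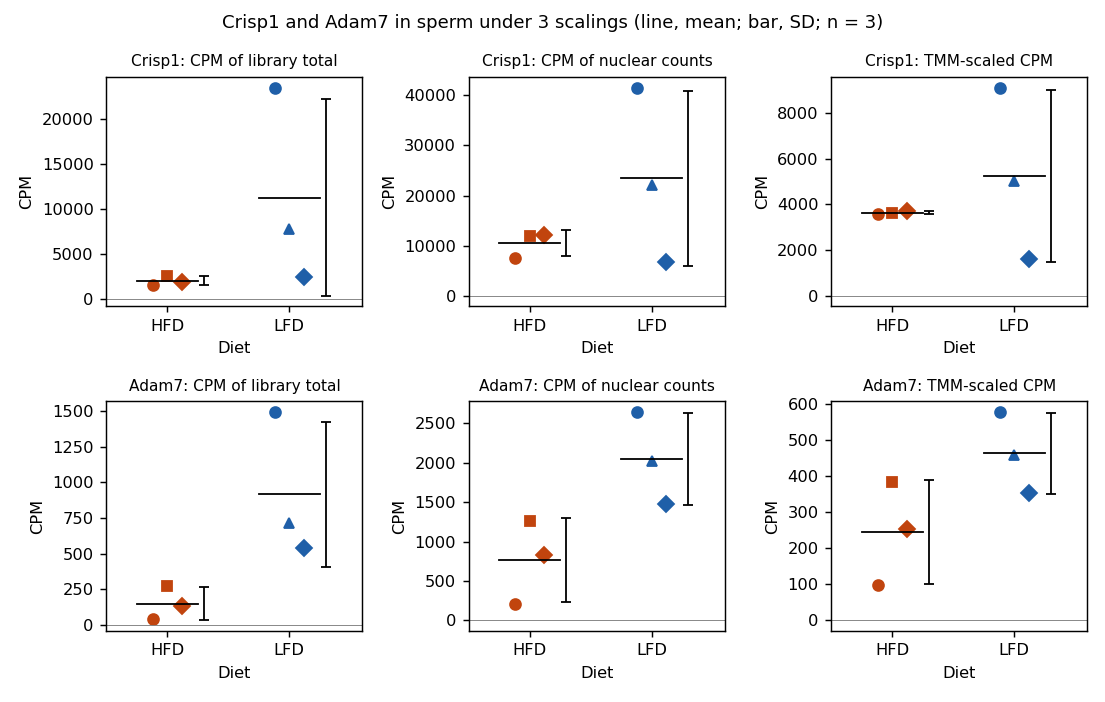
Crisp1 (top) and Adam7 (bottom) in sperm by diet, as CPM of the library total, CPM of nuclear counts and TMM-scaled CPM; each symbol is 1 library, the line is the mean and the bar the SD (n = 3). The LFD libraries of Crisp1 spread on both sides of the HFD libraries after TMM scaling, and those of Adam7 stay mostly above.

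Other genes that are known from the epididymis were read from a list of 22, of which 14 had a count in HFD and 12 in LFD libraries. The 5 with the highest mean level in sperm were Spink8, a Kazal-type protease inhibitor (365 to 8573 CPM), Cd52, a surface glycoprotein made by both epididymal epithelium and leukocytes (234 to 3865 CPM), Rnase12 (12.5 to 238 CPM), Lcn12 (16.6 to 99.2 CPM) and Eppin, a protease inhibitor made in testis and epididymis (6.68 to 32.5 CPM). These 5 were the members of that list that passed the filter, and 0 of them were called between the diets. Their log2 fold changes were -0.97 for Spink8 (SE 0.61), -0.93 for Rnase12 (SE 0.47), -0.60 for Cd52 (SE 0.52), 0.24 for Lcn12 (SE 0.50) and 0.68 for Eppin (SE 0.66), with adjusted p of 0.427 to 0.889 in edgeR. The seminal vesicle genes, a check for fluid from the neighbouring gland, were far lower and summed to 2.34 to 6.65 CPM on HFD and 7.21 to 77.0 CPM on LFD over 7 genes.

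In CPM of library totals, markers of epithelial cells followed the order of the diets seen for Adam7. The 5 epithelial genes Krt8, Krt18, Krt19, Epcam and Cdh1 were all detected under both diets and summed to 84.5, 107 and 178 CPM in h4000, h1000 and h3000 and to 1284, 479 and 350 CPM in l4000, l2000 and l1000. All LFD libraries were above all HFD libraries on this scale, on which 57.2% of all tested genes were lower on HFD without overlap, and l4000 was the highest. In TMM-scaled CPM the epithelial sums overlapped between the diets, with 191.1, 208 and 248 on HFD and 498, 307 and 230 on LFD in the same order of libraries. Divided by the epithelial sum of the same library, Crisp1 was 18.8, 17.8 and 14.6 on HFD (h4000, h1000, h3000) and 18.3, 16.3 and 7.07 on LFD (l4000, l2000, l1000). Adam7 divided likewise was 0.508, 1.22 and 1.55 on HFD and 1.16, 1.50 and 1.54 on LFD. Both ratios overlapped between the diets, and neither showed l4000 apart from the other libraries. The library farthest from the rest was l1000 for Crisp1 and h4000 for Adam7. Spink8 divided likewise was 4.31, 4.62 and 5.25 on HFD and 6.68, 6.36 and 3.37 on LFD. It overlapped too, with l4000 the highest. The 7 sperm and late spermatid genes overlapped between the diets in CPM of library totals, with 10841, 7286 and 5599 on HFD and 4294, 6649 and 10006 on LFD. In TMM-scaled CPM they summed to 24510, 14088 and 7823 on HFD and to 1664, 4266 and 6590 on LFD. Every HFD sum was thus above every LFD sum on the scale of the test. Read singly, 8.12% of all tested genes were higher on HFD without overlap. Smcp and Odf1 were the largest parts of the sums (12170 and 8950 in h4000). Prm2, Tnp1, Tnp2 and Akap4 overlapped between the diets on this scale. Divided by Smcp, a gene of the sperm mitochondrial capsule, Crisp1 ranged from 0.295 in h4000 to 14.5 in l4000. The 5 leukocyte genes overlapped between the diets in CPM of library totals (53.8 to 80.7 on HFD, 62.8 to 110 on LFD). In TMM-scaled CPM they did not, with sums of 121.7, 126.6 and 112.8 on HFD and 42.7, 50.7 and 41.4 on LFD. Among them Ptprc overlapped on that scale (6.76, 7.75 and 25.45 on HFD, 3.18, 10.1 and 5.88 on LFD). The 5 smooth muscle genes were high in h3000 alone (534 CPM, against 0.668 to 87.1 in the other 5). The part of epithelial cells, leukocytes or smooth muscle in the levels of the 9 genes was not tested.

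Within the members the mixture was not constant from library to library. Crisp1 was 36.9 times Adam7 in h4000, 14.6 in h1000 and 9.48 in h3000, and 15.7, 10.9 and 4.59 times in l4000, l2000 and l1000. Against Spink8, Crisp1 was 4.35, 3.86 and 2.79 times in the same HFD libraries and 2.74, 2.56 and 2.10 times in the LFD libraries. All HFD ratios to Spink8 lay above all LFD ratios, narrowly at the closest pair (2.79 against 2.74), whereas the ratios to Adam7 overlapped. The ratios to Cd52 overlapped too, with 6.77, 3.86 and 3.48 on HFD and 6.08, 3.71 and 1.64 on LFD, and the difference in the ratio to Spink8 was not tested. These ratios are within a library and do not depend on its scaling.

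Round spermatids, which have not been in the epididymis, held almost no RNA of most members. Crisp1 had 5 to 8 counts per library (0.161 to 0.397 CPM), Adam7 had 3 counts in 1 library and 0 in the other 5, Gpx5 had 0 to 4, Rnase9 had 1 count in all, and the 3 lipocalins had 0 to 2 per library. Cst8 and Rnase10 were the exceptions. Cst8 had 1718 to 2652 counts per library with a median of 91.7 CPM (range 81.1 to 101), and Rnase10 had 57 to 140 counts with a median of 3.81 CPM (2.83 to 4.51). All 6 round spermatid libraries were far above all 6 sperm libraries in Cst8 CPM (0 to 10.1 in sperm), while for Rnase10 they fell inside the sperm range of 0 to 5.47 CPM.

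Between sperm and round spermatids, edgeR tested 5 members. Crisp1, Adam7 and Gpx5 passed the filter on low counts through the sperm libraries alone, where they are high, so they had to differ, and that all 3 were higher in sperm (26.2% of all tested genes were) supports nothing. The summed ratio of library totals was 24550 for Crisp1 (95% interval 17730 to 35060, counting error only), 24050 for Adam7 (8226 to 116600, on 3 counts in round spermatids) and 146 for Gpx5 (72.4 to 345). The fitted log2 fold changes were 15.96 for Crisp1 (SE 0.66, adjusted p = 2.56e-10, edgeR), 15.41 for Adam7 (SE 0.82, adjusted p = 1.59e-09, edgeR) and 8.59 for Gpx5 (SE 0.61, adjusted p = 1.97e-08, edgeR), against a median of -0.91 over all tested genes. Cst8 was lower in sperm (log2 fold change -2.35, SE 0.83, adjusted p = 0.0193, edgeR), where 48.1% of all tested genes were lower. It passed the filter through the round spermatid libraries, where it is high, since sperm library h3000 had 0 counts of it. The call of Cst8 therefore supports nothing either. Leaving out any 1 round spermatid library ended the call of Cst8 (log2 fold change -2.11 to -2.04, adjusted p = 0.0510 to 0.0584, edgeR). Those fits also called fewer genes in all, 10452 to 10480 in place of 13862, so the loss was not particular to Cst8. Rnase10 did not pass (0.26, SE 0.47, adjusted p = 0.627, edgeR), and its direction turned with the scaling. Rnase9, with 98 counts in sperm and 1 in round spermatids, did not pass the filter, nor did the lipocalins, and Gpx5 did not pass it in the fits without 1 round spermatid library. Of the 22 other epididymal genes, 7 were tested. Spink8, Cd52, Rnase12, Lcn12 and Eppin were higher in sperm (log2 fold changes 3.63 to 17.51), while Crisp4 and Cst12 were lower (-1.41 and -4.38). Rnase12, with 0 counts in round spermatids, was at least 3904-fold higher against the floor of 3 counts over the group. It passed the filter through the sperm libraries alone, so its call supports nothing. Crisp4, at 0 in HFD sperm, and Cst12, at 0 in LFD sperm, could not pass it through sperm, so their calls support nothing either. Spink8, Cd52, Lcn12 and Eppin were at 6.68 CPM or more in every sperm library, so the sperm libraries were enough to pass them. Whether round spermatids would have passed them too was not examined, so their calls are not taken as support. The epithelial markers were higher in sperm as well, 5 of 5 (summed 84.5 to 1284 CPM in sperm, at most 40.2 CPM in round spermatids). Through which libraries these markers passed the filter was not examined, so they are not taken as support either. Of all tested genes, 26.2% were higher in sperm. The leukocyte genes also summed higher in sperm (53.8 to 110 CPM, against 8.35 to 14.9 CPM). Smooth muscle sums overlapped, and adipocyte genes were lower in sperm (0 to 9.6 CPM, against 16.9 to 20.5 CPM). The sperm libraries were single-ended and far shallower than the paired-ended round spermatid libraries, and this difference and that of the cells cannot be told apart.

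**Figure D3:**
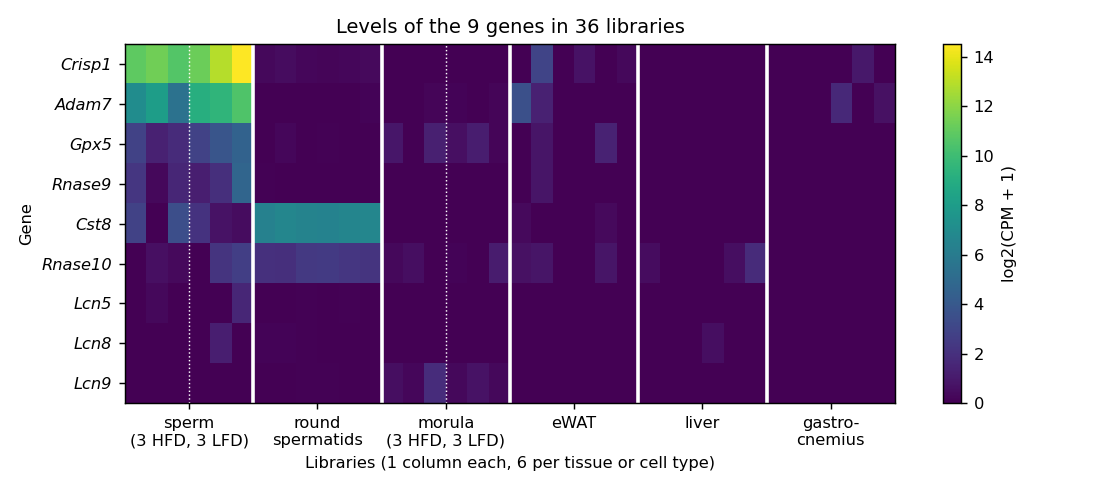
Levels of the 9 genes as log2(CPM + 1) in all 36 libraries, 1 column per library, grouped by tissue or cell type; dotted lines part HFD from LFD libraries in sperm and morula. Crisp1 and Adam7 stand out in sperm, Cst8 and Rnase10 in round spermatids, and a few single libraries of eWAT are above 0.

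In morulae, 5 members (Crisp1, Lcn5, Lcn8, Rnase9 and Cst8) had 0 counts in all 6 libraries, so the most abundant member of sperm was not detected in embryos at 0.247 to 0.261 CPM for 3 counts. Lcn9, at 0 in sperm, had 32, 5 and 2 counts in the HFD libraries and 7, 3 and 3 in the LFD libraries, up to 2.63 CPM. Gpx5 had 17, 10 and 0 counts on HFD and 14, 2 and 6 on LFD. Rnase10 had 0 to 14 and Adam7 0 to 2 counts per library. None of these levels exceeded 2.63 CPM, and the diets overlapped for each of the 4 genes. Titles were followed for the diet of the morulae, although 3 of their descriptions disagree.

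eWAT was examined because its dissection borders on the epididymis. No member passed the filter on low counts against liver or against gastrocnemius, where 62.6% and 69.9% of all tested genes were called. Over 6 libraries the 9 genes had 68 counts, of which 41 were in library 17, 14 in library 18, 10 in library 26 and 3 in libraries 25 and 27 together, and library 22 had none. Adam7 had 38 counts (10.8 CPM) in library 17, 2 in library 18 and 0 in the other 4. Crisp1 had 9 counts (6.73 CPM) in library 18, 2 in library 25, 1 in library 27 and 0 in the other 3, library 17 included. Gpx5 had 6 counts in library 26 and 1 in library 18, Rnase10 had 6 counts spread over libraries 17, 18 and 26, Cst8 had 2 and Rnase9 1, and the 3 lipocalins had 0 everywhere. The libraries with Adam7 and with Crisp1 were therefore largely different ones.

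Liver and gastrocnemius gave the background. In liver the members had 8 counts, 7 of Rnase10 (5 of them in 1 library) and 1 of Lcn8, and in gastrocnemius 5 counts, 3 of Adam7 and 2 of Crisp1. Set against the 3 counts that 0 in all 6 liver libraries allows, Adam7 was at least 10.2-fold higher in eWAT, Crisp1 at least 3.04-fold and Gpx5 at least 1.78-fold. Against gastrocnemius the ratio was 7.42 for Adam7 (95% interval 2.36 to 37.5, on 3 counts) and 3.34 for Crisp1 (0.743 to 30.7, on 2 counts). With no filter on low counts, Adam7 passed the test against liver (adjusted p = 0.0288, edgeR) and Crisp1 did not (adjusted p = 0.0638, edgeR), where 30.3% of 28654 genes were called. Without library 17, Adam7 no longer passed (adjusted p = 0.320, edgeR) and Crisp1 did (adjusted p = 0.0131, edgeR), library 17 holding 38 of the 40 counts of Adam7 and library 18 holding 9 of the 12 counts of Crisp1. Levels in eWAT, liver and gastrocnemius come from 3′ end libraries and are not set per length against those of sperm.

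The 2 eWAT libraries with most counts on the members differed in what else they held. Library 17 had 304 genes with at least 20 counts whose CPM in each of the other 5 libraries was under 5% of its own, and none of the other 5 had such a gene. Among them were Cldn2, a tight junction gene (919 CPM, at most 2.40 in the others), Prom1 (780 CPM), Ptgds (749 CPM) and Epcam (220 CPM, at most 0.573 in the others). The 5 epithelial markers summed to 577 CPM in library 17 and to 9.98 to 55.9 CPM in the other 5, library 18 at 20.9 included. The 7 sperm and late spermatid genes summed to 79.2 CPM in library 17 and to 0 to 2.72 CPM in the others. A list of 5 Sertoli and Leydig cell genes summed to 331 CPM in library 17 and to 13.8 to 22.9 CPM in the others. Most of it in library 17 was Sox9 (322 CPM, at most 12.6 in the others). Adipocyte genes were lowest in libraries 17 (14878 CPM) and 18 (17685 CPM) and summed to 23038 to 28927 CPM in the other 4. Of the 22 other epididymal genes, Spink8 had 12 of its 13 counts in library 18, and Teddm1b had all of its 14 and Spag11b 4 of its 5 in library 17, while Cd52, which leukocytes also make, was at 31.4 to 82.6 CPM in all 6. Of the 22, 8 had a count in library 17, 3 in library 18 and 2 or 3 in each of the other 4. The part of epithelial or other cells in these values was not tested.

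**Figure D4:**
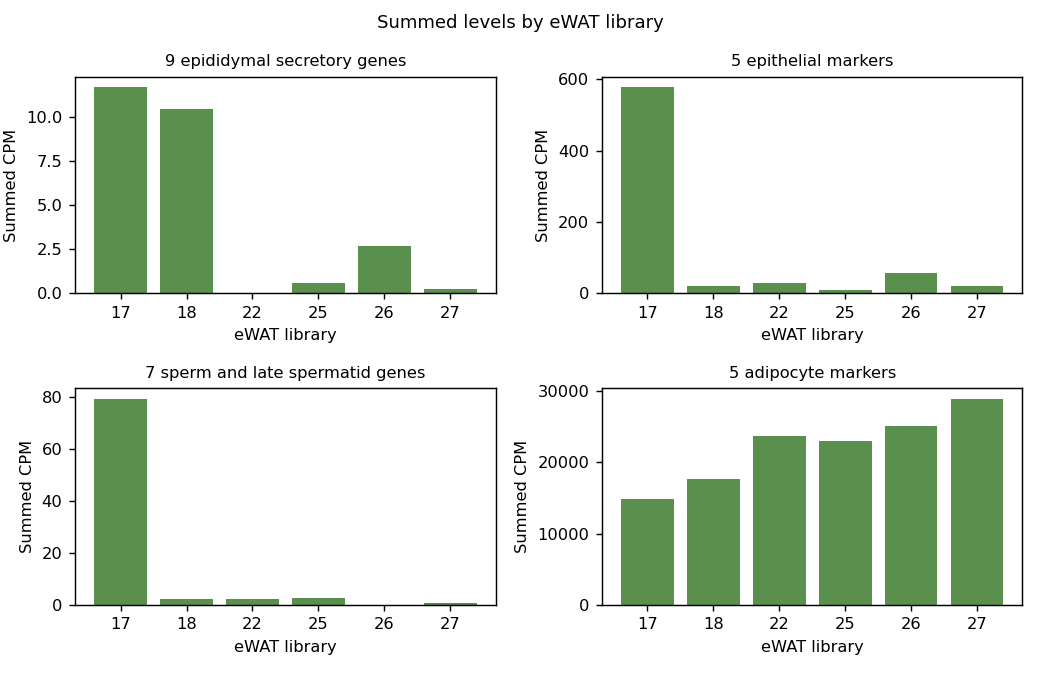
Summed CPM by eWAT library for the 9 genes, 5 epithelial markers, 7 sperm and late spermatid genes and 5 adipocyte markers; each bar is 1 library. The members are highest in libraries 17 and 18, epithelial and sperm genes in library 17 alone, and adipocyte genes are lowest in libraries 17 and 18.

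Across all 36 libraries, the mean log2(CPM + 1) profile of the 9 genes was followed most closely by Ces5a (Pearson's r = 0.983), a carboxylesterase, among 32132 genes with at least 20 counts in all. The next were Atp13a4, Wfdc10, Serpina1f, Serpina16, Defb11, Wfdc8, Pax2, Gm32390 and Akr1b7, with r down to 0.962. The correlation is a description, since the libraries share tissue, depth and table, and most of it is the gap between sperm and the other tissues. Ces5a was at 73.4 to 1632 CPM in sperm, 5.46 to 7.60 CPM in round spermatids and 0 to 2.24 CPM in eWAT, and Serpina1f at 357 to 3073 CPM in sperm. Pax2, a transcription factor gene of the duct epithelia of kidney and epididymis, was at 24.7 to 190 CPM in sperm and reached 7.69 CPM in eWAT library 17.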

How the data were processed

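Per the labels, RNA of sperm, round spermatids and morulae was made into Nextera libraries, and RNA of liver, gastrocnemius and eWAT into QuantSeq 3′ libraries. The authors used BBDuk for trimming and STAR for mapping to GRCm38, counted reads per gene with featureCounts and deposited raw counts, 1 table per tissue; whether counting used strand is not given in the sources used here. Annotation releases differ between tables, and sperm and round spermatids were compared over their 51746 shared genes. The symbols of 54723 of 54838 sperm identifiers were found. The 9 members, the gene lists and the comparisons were chosen with earlier results of these data known.

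Tests used R 4.3.3 and edgeR 4.0.16 (TMM scaling, genes kept by filterByExpr at a count of 10 or more, two-sided quasi-likelihood test, Benjamini-Hochberg threshold of 0.05). DESeq2 1.42.0, limma-voom (limma 3.58.1), other scalings, no filter and leaving out each library were alternatives, as was a block by column number. Tests were checked on simulated counts. Intervals are 95%, for counting error only. Sperm diets came from the letter of the column name (h or l). Named beside the members were the 5 other epididymal genes highest in sperm and in eWAT and the 10 genes most like the mean profile. Crisp4, Cst12, Epcam, Sox9, Ptprc, the singly named sperm and late spermatid genes and the leading genes of eWAT library 17 were named after their values were seen. Transcripts were aligned with blastn 2.17.0 and figures drawn with matplotlib 3.10.9.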

Additional observations from a re-analysis of the deposited data

Results flagged for a closer look

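In groups of 6 libraries, the gap between the highest library and the next was tested by Dixon's rule for each member with a library above 3 counts, which gave 8 groups. Chance flags about 1 in 20 groups, but these were picked for a library above 3 counts among libraries mostly at 0 to 2 counts, so that rate cannot be read against the 4 that stood out. Adam7 was at 10.8 CPM in eWAT library 17, with 0 to 1.49 CPM in the other 5. Crisp1 was at 6.73 CPM in eWAT library 18, with 0 to 0.605 CPM in the other 5. Rnase10 was at 2.46 CPM in liver library 24, on 5 counts, with 0 to 0.426 CPM in the other 5. Gpx5 was at 0.199 CPM in round spermatid library 14364, on 4 counts, with 0 to 0.0644 CPM in the other 5. The rule was applied to round spermatids, eWAT, liver and gastrocnemius, and the groups of 3 sperm or morula libraries are too small for it.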

How the results depend on the processing

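The count of genes called between the sperm diets was 0 with edgeR, and 3266 with library totals, 295 with DESeq2, 41 with no filter on low counts, and 0 in every fit that left out 1 library. A block by the number in the column names, of which the diets share only 2, gave 2 calls. The same-numbered libraries deviated from their group means with r = -0.15 and 0.105, so the numbers were not taken to pair them. Gpx5 turned direction with DESeq2 size factors (0.012), DESeq2 (0.0099) and the block (0.47), and ranged from -0.96 to 0.31 without 1 library. Crisp1 ranged from -0.88 to 0.16 in those fits, the one positive value being that without l4000, and was -0.08 with the block. Adam7 stayed negative in all 13 alternatives and Cst8 positive in all 12 run for it, with adjusted p of 0.0133 to 0.892 and 0.0668 to 0.773. Between sperm and round spermatids, Rnase10 turned with DESeq2 size factors (-0.066), library totals (-1.26), no filter (-0.41), DESeq2 (-0.10) and limma-voom (-0.62), and ranged from -0.40 to 0.56 without 1 library. Crisp1 and Adam7 (18 alternatives each) and Gpx5 (12, since it failed the filter without 1 round spermatid library) kept direction and call. As these 3 passed the filter through the sperm libraries alone, a kept call supports nothing. The median log2 fold change over all genes in this comparison was -1.21 with DESeq2 size factors and -2.55 with library totals. The median summed level of the members in sperm was 2952 CPM of library totals and 13138 CPM of nuclear counts. With a pseudocount of 0.1, 6 of the 10 genes most like the members were shared. The cause of these shifts was not tested. In sperm, 5 members had too few counts for the test, which does not tell a member that is absent from one below 0.738 to 1.17 CPM, and eWAT comparisons had no member with enough counts.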
